A study of Saccharomyces cerevisiae with 27 samples.

Results

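The ATG genes of Saccharomyces cerevisiae are those named ATG followed by a number, after the autophagy mutants in which most of them were found. The 32 genes described here were taken by their systematic names from the table of 6746 genes, and all 32 were among the 6209 genes that had enough counts to be tested. ATG38, ATG41 and ATG42, which carry such names in the reference annotation, were not among the 32 and belong to companion lists. Poly(A) RNA was sequenced from yeast cultures in 27 libraries, with 3 replicates of every 1 of 9 combinations of strain and condition. These were the wild-type strain and the mutants H4-T30A, H4-T30D and H4-S47D in log phase on rich medium (YPD) at 30 °C, H4-S47D and wild-type cells after 15 min in 0.4 M NaCl (osmostress), and both threonine 30 mutants and wild-type cells after 10 min at 39 °C (heat stress). The mutant names give the substitutions in histone H4, namely aspartic acid for serine 47 (S47D), and alanine (T30A) or aspartic acid (T30D) for threonine 30. Aspartic acid carries a negative charge, as a phosphorylated residue does.

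All strains were labelled BY4741 and MATa. They shared, according to the labels, the alleles met15Δ0, ura3Δ0, trp1Δ63, lys2Δ0, leu2Δ0 and his3Δ200, the insertion of MFA1pr-HIS3 at can1, and the replacement of hht1-hhf1 by NatMX4. The hht2-hhf2 locus held a URA3-marked cassette, HHTS-HHFS, with the wild-type or the mutant H4 sequence. By the labels, wild type carried the same cassette and deletions as the mutants, though marker RNA described below went against this for H4-S47D. The labels name a single wild type, whose non-stressed libraries were the control for all 3 mutants. The study's methods speak of a wild type for each residue, so whether this strain is the matched parent of every mutant is not known. The question put to these groups was which genes respond to each stress and whether the H4 substitutions alter their levels before or upon stress.

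In autophagy, a double-membrane sac forms around cytoplasm or a chosen cargo, closes into an autophagosome and fuses with the vacuole, where the contents are broken down. The Atg1 kinase complex starts the sac, Atg9 vesicles and the lipid transfer protein Atg2 supply its membrane, a phosphatidylinositol 3-kinase marks it, and a pair of ubiquitin-like conjugation systems attach Atg8 to it. In growing yeast the same machinery works in the Cvt pathway, which carries hydrolases such as Ape1 to the vacuole, and cargo receptors that bind Atg8 select mitochondria, peroxisomes, nuclear envelope or endoplasmic reticulum.

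Upstream sequences of 3 ATG genes are shown because these genes were among those whose RNA rose most upon stress, and because ATG8 and ATG29 hold several short elements tied to stress, nutrient or meiotic control of ATG genes while the gene with the largest response holds none of them. Each sequence runs from 250 bases before to 50 bases after the first base of the coding sequence, on the coding strand, in the R64 assembly. Capitals mark, on either strand, AGGGG (the stress response element bound by Msn2 and Msn4), GGCGGC (the URS1 core bound by Ume6), GATAAG (bound by GATA factors) and TGACTC (bound by Gcn4). No window of the 3 held a heat shock element, searched as GAANNTTC and TTCNNGAA.
ATG8, chrII:80682-80981, minus strand: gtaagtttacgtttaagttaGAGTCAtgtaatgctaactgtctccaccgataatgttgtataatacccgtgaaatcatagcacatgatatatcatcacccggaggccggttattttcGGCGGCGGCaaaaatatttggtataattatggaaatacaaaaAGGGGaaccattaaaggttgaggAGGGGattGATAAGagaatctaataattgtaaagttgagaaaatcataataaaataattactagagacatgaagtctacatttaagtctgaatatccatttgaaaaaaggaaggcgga
ATG29, chrXVI:237088-237387, plus strand: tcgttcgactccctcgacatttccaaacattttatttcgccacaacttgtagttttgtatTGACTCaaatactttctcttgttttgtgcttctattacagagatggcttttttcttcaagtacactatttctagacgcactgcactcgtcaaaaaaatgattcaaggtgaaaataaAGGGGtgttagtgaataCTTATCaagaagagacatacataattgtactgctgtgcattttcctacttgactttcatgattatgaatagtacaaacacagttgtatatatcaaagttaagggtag
ATG39, chrXII:758784-759083, minus strand: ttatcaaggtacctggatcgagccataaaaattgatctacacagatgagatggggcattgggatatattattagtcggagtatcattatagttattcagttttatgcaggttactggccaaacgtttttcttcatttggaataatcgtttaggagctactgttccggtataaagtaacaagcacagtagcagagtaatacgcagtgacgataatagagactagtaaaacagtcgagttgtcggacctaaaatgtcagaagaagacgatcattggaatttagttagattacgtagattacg

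In the window of ATG8, AGGGG begins 91 and 68 bases before the coding sequence, the overlapping pair of GGCGGC matches begins 133 and 130 bases before it, and the GATAAG and TGACTC matches begin 60 and 230 bases before it. The ATG29 window holds AGGGG at 74, GATAAG at 57 and TGACTC at 190 bases. REV3, on the opposite strand, lies 230 bp upstream of ATG29, so the first bases of that window fall within REV3. Over all 32 ATG genes, AGGGG was found in 7 windows (21.9%, against 21.6% of 6001 windows of the same length), GGCGGC in 2 (6.25%, against 5.13%), GATAAG in 10 (31.2%, against 14.7%), TGACTC in 6 (18.8%, against 7.98%) and a heat shock element in 5 (15.6%, against 22.6%). None of these letters was found in 16 of the 32 windows, among them those of 8 of the 20 genes that rose past 2-fold upon osmostress. The share of all 6001 windows without any of them was not counted. AGGGG was in 6 windows of these 20 genes and in 1 of the 12 others, GATAAG in 8 and 2, and TGACTC in 5 and 1. GGCGGC was in 2 and 0, and a heat shock element in 3 and 2. This split by response was not counted over all genes and was not tested. These are matches of letters in a fixed window and no binding was measured.

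Levels are given as CPM, that is, counts relative to the library total after scaling with edgeR's TMM factors, so they are relative to the other RNA of the same culture. In a culture, more RNA in every cell and more cells with that RNA cannot be told apart. The depth of the libraries ran from 10212777 to 19503694 deposited counts (median 14662715), and TMM factors ranged from 0.819 to 1.33. Log2 fold changes (log2FC) are given with their standard error (SE), and a gene was called higher or lower where the Benjamini-Hochberg adjusted p of edgeR's quasi-likelihood fit over all genes tested was under 0.05. The replicates are biological by the study's methods, and the labels only number them. The p-values and SE rest on the spread between replicate libraries, estimated jointly over all 9 groups rather than from the groups compared alone.

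Marker genes were read before the comparisons. The osmostress marker STL1 had between 61536 and 96798 counts in the osmostressed libraries and between 10 and 106 in the others, with 1 exception. TRP1 went against the labelled trp1 deletion in the H4-S47D strain, with 5001 to 5685 counts without stress and 2449 to 4753 upon osmostress, against 1 to 55 elsewhere. URA3 was at 511 to 563 CPM in non-stressed H4-S47D cells and at 111 to 132 CPM in non-stressed wild-type cells. The H4-S47D strain thus differed from the wild type in these markers too, and what goes with them and what goes with the substitution cannot be told apart. In 3 libraries, counts appeared for LEU2, LYS2 and MET17, which the labels give as deleted and which are the deleted genes meant below. The third heat-stressed wild-type library had 26 counts of LEU2, 43 of LYS2, 63 of MET17 (the gene of the met15 allele) and 1361 of STL1, the first osmostressed H4-S47D library had 36, 29 and 59 of the first 3 genes, and the second non-stressed H4-T30D library had 3, 4 and 32. Elsewhere these 3 genes had 0 to 2 counts. HHT1 and HHF1, whose locus the labels give as replaced by NatMX4, had counts in every library. In non-stressed wild-type cells HHT1 was at 135, 131 and 132 CPM and HHF1 at 21.3, 37.0 and 38.8 CPM. The source of these counts was not tested. Results are also given without these 3 libraries where the number of calls moved by over 1.5 times.

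In wild-type cells the ATG genes as a group were strongly induced by both stresses, but unequally among their roles. Upon osmostress, 20 of 32 ATG genes rose past 2-fold and 0 fell past 2-fold (edgeR's glmTreat test against a log2FC of 1), against 12.8% of all genes tested that rose and 12.5% that fell in this way. Upon heat stress, 18 rose past 2-fold and 0 fell, against 15.8% and 15.4% of all genes tested. The median log2FC of the ATG genes was 1.64 upon osmostress and 1.45 upon heat stress, and that of all genes tested was 0.0755 and 0.082. Summed over the 32 genes, ATG RNA was at 693.3 ± 23.7 CPM without stress (SD, n = 3), at 1563 ± 8.68 CPM upon osmostress and at 1426 ± 27.3 CPM upon heat stress.

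Tested against 0 rather than 2-fold, 27 ATG genes were higher and 2 were lower upon osmostress, where 40.3% of all genes tested were higher and 36.2% lower. Upon heat stress 28 were higher and 2 lower, where 41.7% of all genes tested were higher and 36.4% lower. These comparisons share the non-stressed wild-type libraries, so both responses of a gene are given side by side below. With library totals in place of TMM factors, the share of higher genes among all those called upon osmostress was 65.7% in place of 50.5% past 2-fold, and 67.2% in place of 52.7% against 0. The median of all genes was then 0.349, and 22 ATG genes rose past 2-fold.

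**Figure D1:**
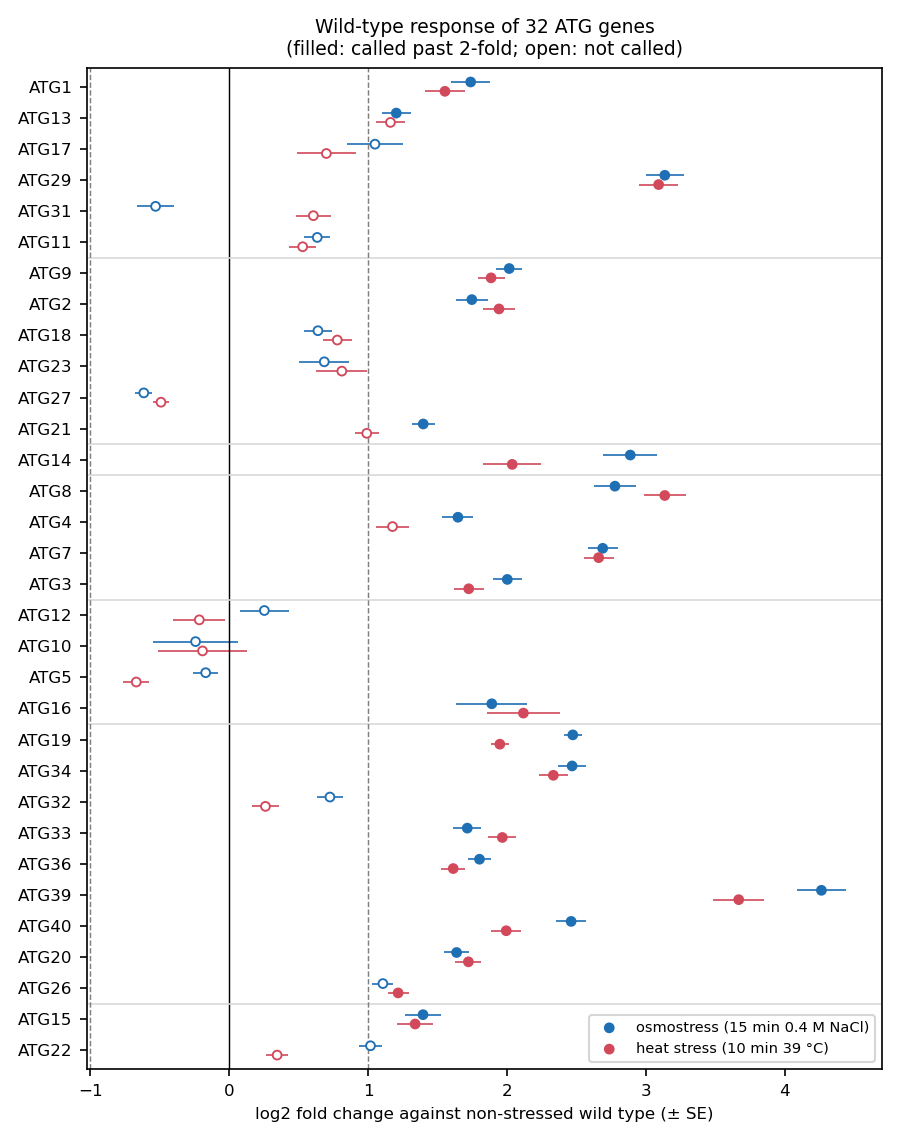
Response of the 32 ATG genes in wild-type cells, ordered by role from the Atg1 complex (top) to the vacuole (bottom), with the log2 fold change against non-stressed wild type on the x axis. Points are estimates from 3 libraries a group with their SE, filled where the change passed the 2-fold test (20 genes upon osmostress in blue, 18 upon heat stress in red); ATG39 lies farthest to the right and ATG27 lies below 0 in both.

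In the Atg1 complex, 3 of 6 genes rose past 2-fold upon osmostress and 2 of 6 upon heat stress. ATG1 (YGL180W, chrVII:160065-162758) encodes the kinase itself. It was at 12.2, 8.43 and 8.58 CPM in the non-stressed wild-type libraries, at 36.4, 33.3 and 28.3 CPM upon osmostress and at 29.8, 26.1 and 30.6 CPM upon heat stress. All stressed libraries lay above all non-stressed ones. The log2FC was 1.74 (SE 0.141, adjusted p = 5.82e-06 against 2-fold) upon osmostress and 1.55 (SE 0.145, adjusted p = 0.000225) upon heat stress.

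The scaffold of starvation-induced autophagy is formed by Atg17, Atg29 and Atg31, and its 3 genes responded differently. ATG29 (YPL166W, chrXVI:237338-237979) was at 3.10, 2.91 and 3.08 CPM without stress, at 23.2, 30.4 and 26.7 CPM upon osmostress and at 25.1, 26.5 and 26.0 CPM upon heat stress. It rose with a log2FC of 3.14 (SE 0.138, adjusted p = 1.64e-15) and 3.09 (SE 0.14, adjusted p = 2.43e-15). Its last 24 bases overlap SET6 on the opposite strand, which was at 0.243 to 0.333 CPM in the non-stressed wild-type libraries, and whether the counting used the strand is not given in the sources used here. ATG17 (YLR423C, chrXII:971917-973170) had a log2FC of 1.05 upon osmostress and 0.70 upon heat stress, neither past the 2-fold test (adjusted p = 0.579 and 1), and both were above 0 (adjusted p = 2.62e-05 and 0.0039). ATG31 (YDR022C, chrIV:488072-488662) was at 8.96, 9.47 and 8.58 CPM without stress, at 5.89, 6.71 and 6.15 CPM upon osmostress and at 13.0, 15.5 and 12.6 CPM upon heat stress. The 3 groups did not overlap. It was lower upon osmostress (log2FC −0.53, SE 0.133, adjusted p against 0 = 0.000722) and higher upon heat stress (0.61, SE 0.127, adjusted p = 8.91e-05).

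ATG13 (YPR185W, chrXVI:907218-909434), whose product activates the kinase and is a target of the TORC1 nutrient kinase, had a log2FC of 1.20 upon osmostress (adjusted p against 2-fold = 0.0299) and 1.16 upon heat stress (adjusted p = 0.0609). The osmostress call of ATG13 was lost with DESeq2's size factors. ATG11 (YPR049C, chrXVI:661137-664673), the scaffold of selective autophagy, stayed within 2-fold, with a log2FC of 0.63 and 0.53, both above 0 (adjusted p = 5.78e-07 and 1.4e-05).

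Among the 6 genes of Atg9 traffic and lipid transfer, 3 rose past 2-fold upon osmostress and 2 upon heat stress. ATG9 (YDL149W, chrIV:184925-187918) encodes the membrane protein of the vesicles that seed the sac. It was at 8.00, 6.67 and 7.58 CPM without stress, at 29.9, 31.3 and 28.8 CPM upon osmostress and at 27.3, 27.4 and 27.6 CPM upon heat stress. The non-stressed libraries lay far below all stressed ones. Its log2FC was 2.02 (SE 0.095, adjusted p = 8.02e-12) and 1.89 (SE 0.097, adjusted p = 1.79e-10).

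ATG2 (YNL242W, chrXIV:191324-196102), whose product moves lipids into the growing sac, was at 13.5, 15.9 and 13.7 CPM without stress, at 53.9, 51.5 and 39.1 CPM upon osmostress and at 52.3, 56.3 and 57.3 CPM upon heat stress. It rose with a log2FC of 1.75 (SE 0.113, adjusted p = 1.32e-07) and 1.94 (SE 0.114, adjusted p = 1.32e-09). ATG21 (YPL100W, chrXVI:361872-363362), which encodes a phosphoinositide-binding protein of the Cvt pathway, had a log2FC of 1.40 upon osmostress (adjusted p = 2.14e-05) and 0.99 upon heat stress (adjusted p = 0.715 against 2-fold).

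The other 3 genes of this group did not pass the 2-fold test in either stress. ATG18 (YFR021W, chrVI:194812-196314), the phosphoinositide-binding partner of Atg2, had a log2FC of 0.64 and 0.78, and ATG23 (YLR431C, chrXII:1000342-1001703), which takes part in Atg9 traffic, of 0.68 and 0.81, all above 0. ATG27 (YJL178C, chrX:89282-90097), another gene of Atg9 traffic, was the exception in direction. It was at 136, 150 and 141 CPM without stress, at 95.3, 88.2 and 95.3 CPM upon osmostress and at 101, 103 and 99.2 CPM upon heat stress. It was lower in both stresses, with a log2FC of −0.62 (SE 0.06, adjusted p against 0 = 1.37e-10) and −0.49 (SE 0.0604, adjusted p = 1.43e-08).

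ATG14 (YBR128C, chrII:493081-494115) encodes the subunit that directs the phosphatidylinositol 3-kinase to autophagy. It was at 2.03, 2.18 and 1.5 CPM without stress, at 13.9, 13.9 and 15.3 CPM upon osmostress and at 7.28, 6.96 and 9.69 CPM upon heat stress. The 3 groups did not overlap, and the osmostressed libraries were the highest. Its log2FC was 2.89 (SE 0.193, adjusted p = 7.81e-11) and 2.04 (SE 0.208, adjusted p = 1.02e-05).

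The ubiquitin-like systems split. All 4 genes of Atg8 conjugation rose past 2-fold upon osmostress and 3 upon heat stress, while in the Atg12 system 1 of 4 did so in each. ATG8 (YBL078C, chrII:80378-80731), whose product is attached to lipid in the growing sac and binds the cargo receptors, was at 3.89, 3.09 and 2.16 CPM without stress, at 21.5, 21.2 and 21.8 CPM upon osmostress and at 31.6, 25.2 and 26.0 CPM upon heat stress. Its log2FC was 2.78 (SE 0.152, adjusted p = 1.23e-12) and 3.14 (SE 0.152, adjusted p = 9.48e-15). ATG7 (YHR171W, chrVIII:445713-447605), the activating enzyme shared by both systems, was at 8.56, 9.16 and 7.24 CPM without stress, at 59.9, 53.8 and 48.4 CPM upon osmostress and at 50.0, 53.8 and 55.5 CPM upon heat stress. Both stressed groups were thus at about the same level, with a log2FC of 2.69 (SE 0.107, adjusted p = 7.78e-16) and 2.66 (SE 0.109, adjusted p = 1e-15). ATG3 (YNR007C, chrXIV:639182-640114), the conjugating enzyme of Atg8, had a log2FC of 2.00 and 1.72, both past 2-fold. ATG4 (YNL223W, chrXIV:227370-228854), the protease that trims and recycles Atg8, had 1.65 upon osmostress (adjusted p = 1.24e-06) and 1.18 upon heat stress (adjusted p = 0.0645).

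In the Atg12 system, ATG16 (YMR159C, chrXIII:574476-574928), which encodes the partner that joins the Atg12-Atg5 conjugate into a larger complex, rose from 0.833 to 1.24 CPM without stress to 3.19 to 4.51 CPM upon osmostress and 3.76 to 4.89 CPM upon heat stress (log2FC 1.89 and 2.12, adjusted p = 0.000916 and 7.45e-05). ATG5 (YPL149W, chrXVI:271310-272194), the target of Atg12, was at 52.1, 57.3 and 66.3 CPM without stress, at 51.4, 48.0 and 56.4 CPM upon osmostress and at 40.0, 36.9 and 33.2 CPM upon heat stress. The osmostressed libraries overlapped the non-stressed ones and the heat-stressed ones lay below both. It was lower upon heat stress (log2FC −0.67, SE 0.0935, adjusted p against 0 = 1.61e-07), and upon osmostress the log2FC was −0.17 (SE 0.0898, adjusted p = 0.0861). ATG12 (YBR217W, chrII:657832-658392), the ubiquitin-like protein, and ATG10 (YLL042C, chrXII:52087-52590), its conjugating enzyme, were not called against 0 in either stress, with a log2FC of 0.25 and −0.22 for ATG12 and −0.24 and −0.19 for ATG10. ATG10 was near 1 to 2 CPM, so its SE was wide (0.305 and 0.322).

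Among the 9 genes of cargo receptors and selective autophagy, 7 rose past 2-fold upon osmostress and 8 upon heat stress. ATG39 (YLR312C, chrXII:757637-758833), the receptor for nuclear envelope and perinuclear endoplasmic reticulum, had the largest change of the 32 in both. It was at 1.58, 1.21 and 1.75 CPM without stress, at 27.2, 27.7 and 32.0 CPM upon osmostress and at 17.3, 21.8 and 18.2 CPM upon heat stress. The log2FC of ATG39 was 4.27 (SE 0.176, adjusted p = 3.73e-17) upon osmostress, a 19.2-fold change, and 3.67 (SE 0.183, adjusted p = 6.1e-15) upon heat stress. Its upstream window, shown above, holds none of the elements searched.

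ATG40 (YOR152C, chrXV:617518-618288), the receptor for the rest of the endoplasmic reticulum, was at 8.23, 10.9 and 10.2 CPM without stress, at 54.6, 54.8 and 51.4 CPM upon osmostress and at 35.2, 39.2 and 42.0 CPM upon heat stress. Its 3 groups did not overlap, and the log2FC was 2.46 (SE 0.106, adjusted p = 1.71e-14) and 1.99 (SE 0.108, adjusted p = 1.44e-10). ATG19 (YOL082W, chrXV:168727-169974), the receptor of the Cvt pathway that binds Ape1 and Ams1, was at 31.3, 33.2 and 29.6 CPM without stress, at 166, 178 and 180 CPM upon osmostress and at 124, 121 and 118 CPM upon heat stress. It rose with a log2FC of 2.47 (SE 0.0668, adjusted p = 1.14e-19) and 1.95 (SE 0.0669, adjusted p = 4.67e-15). ATG34 (YOL083W, chrXV:165714-166952), the gene next to ATG19 on the same strand and 1774 bp away, encodes the receptor that takes Ams1 upon starvation. It was at 6.54, 7.10 and 7.49 CPM without stress, at 38.5, 40.5 and 37.6 CPM upon osmostress and at 34.5, 33.6 and 38.1 CPM upon heat stress (log2FC 2.47 and 2.33, adjusted p = 6.11e-15 and 6.05e-14).

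The mitochondrial genes of this group differed. ATG33 (YLR356W, chrXII:840321-840914), which encodes a mitochondrial outer membrane protein needed for mitophagy, was at 30.4, 31.0 and 38.8 CPM without stress, at 116, 111 and 99.5 CPM upon osmostress and at 136, 132 and 121 CPM upon heat stress. Its log2FC was 1.71 (SE 0.1, adjusted p = 2.68e-08) and 1.97 (SE 0.101, adjusted p = 4.48e-11). ATG32 (YIL146C, chrIX:74184-75773), the mitophagy receptor, was not past 2-fold in either stress, with a log2FC of 0.72 (adjusted p against 0 = 5.36e-08) and 0.26 (adjusted p = 0.0177, lost with DESeq2's size factors).

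ATG36 (YJL185C, chrX:82095-82976), the receptor for peroxisomes, rose with a log2FC of 1.80 and 1.61, and ATG20 (YDL113C, chrIV:256633-258555), a sorting nexin of selective autophagy, with 1.64 and 1.72. ATG26 (YLR189C, chrXII:530797-534393), the sterol glucosyltransferase, had 1.11 upon osmostress (adjusted p against 2-fold = 0.0954) and 1.22 upon heat stress (adjusted p = 0.00302, lost with library totals in place of TMM factors). In the vacuole, ATG15 (YCR068W, chrIII:237214-238776), the lipase that opens autophagic bodies, rose with 1.40 (adjusted p = 0.00216) and 1.34 (adjusted p = 0.00564), and both calls were lost without the second non-stressed wild-type library, in which ATG15 was at 35.4 CPM against 50.5 and 60.9 CPM in the other two. ATG22 (YCL038C, chrIII:54941-56527), which exports amino acids from the vacuole, was at 50.6, 56.3 and 56.9 CPM without stress, at 115, 114 and 102 CPM upon osmostress and at 74.9, 68.7 and 64.1 CPM upon heat stress. Its log2FC of 1.02 and 0.34 did not pass the 2-fold test and was above 0 in both (adjusted p = 1.04e-12 and 0.00036).

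**Figure D2:**
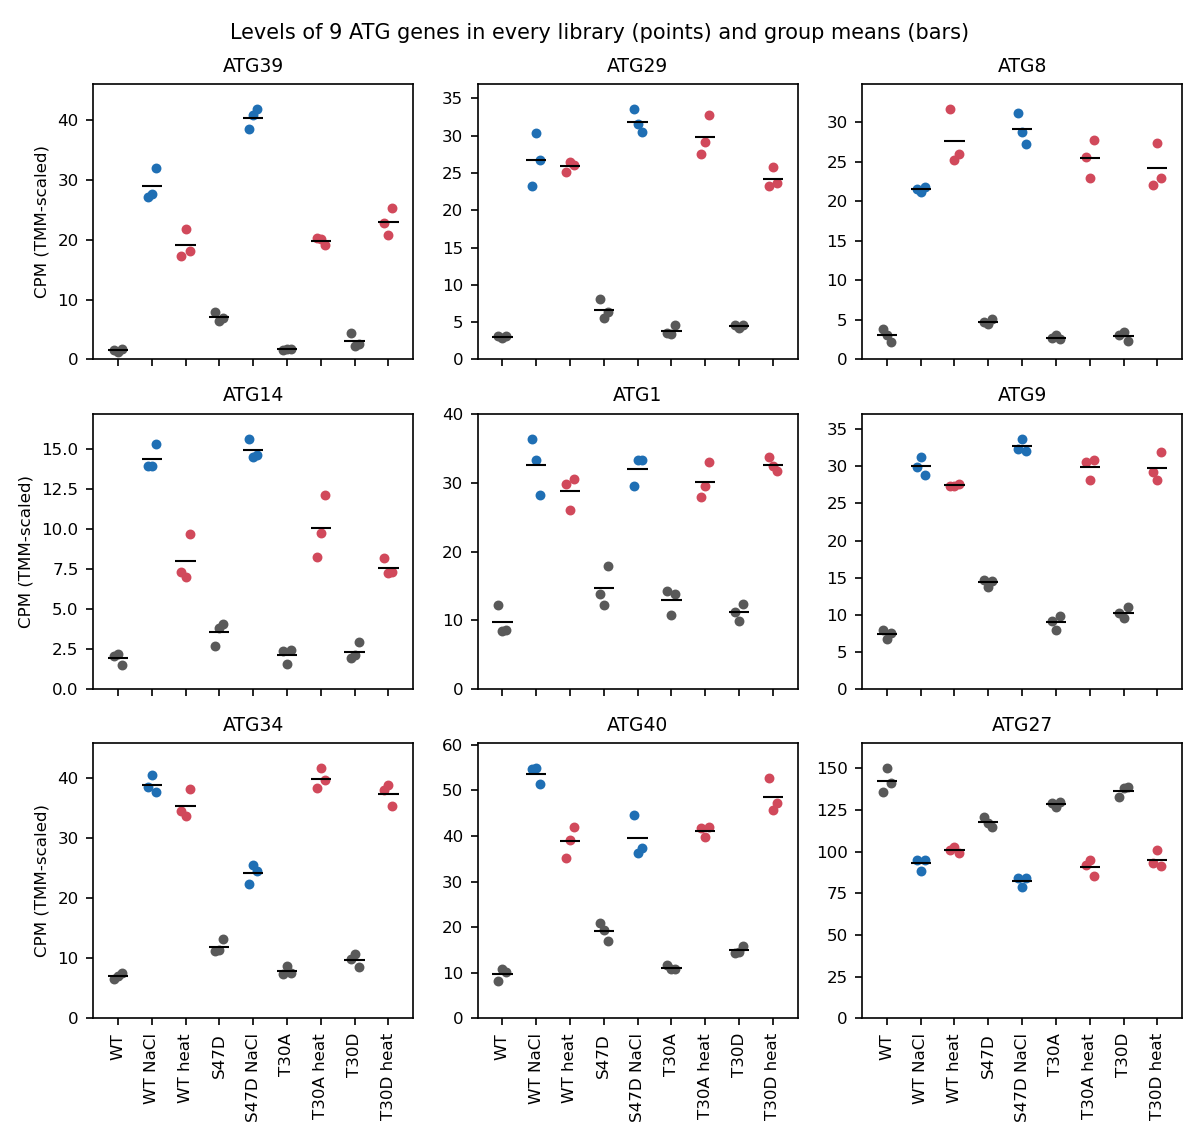
CPM of 9 ATG genes in every library, by group on the x axis (gray, no stress; blue, 15 min 0.4 M NaCl; red, 10 min 39 °C), with 1 point a library and a bar at the mean of 3. ATG39 goes from 1.21 to 1.75 CPM in non-stressed wild type to 27.2 to 32.0 CPM upon osmostress, ATG34 and ATG40 are lower in osmostressed H4-S47D than in osmostressed wild type, and ATG27 is the 1 gene of the 9 that is lower in the stressed groups.

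Levels of different genes were compared per kb of coding length. Without stress they spanned 138-fold, from 1.26 CPM per kb for ATG39 to 174 CPM per kb for ATG27, with a median of 9.23. Upon osmostress the lowest was ATG10 at 2.87 and the highest ATG33 at 183 CPM per kb, with a median of 25.8. Upon heat stress the range was 2.97 to 219 CPM per kb with a median of 24.1, between the same genes. In the order of levels ATG39 went from place 32 without stress to place 18 upon osmostress and 21 upon heat stress, ATG8 from 17 to 7 and 5, and ATG5 from 2 to 9 and 10.

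**Figure D3:**
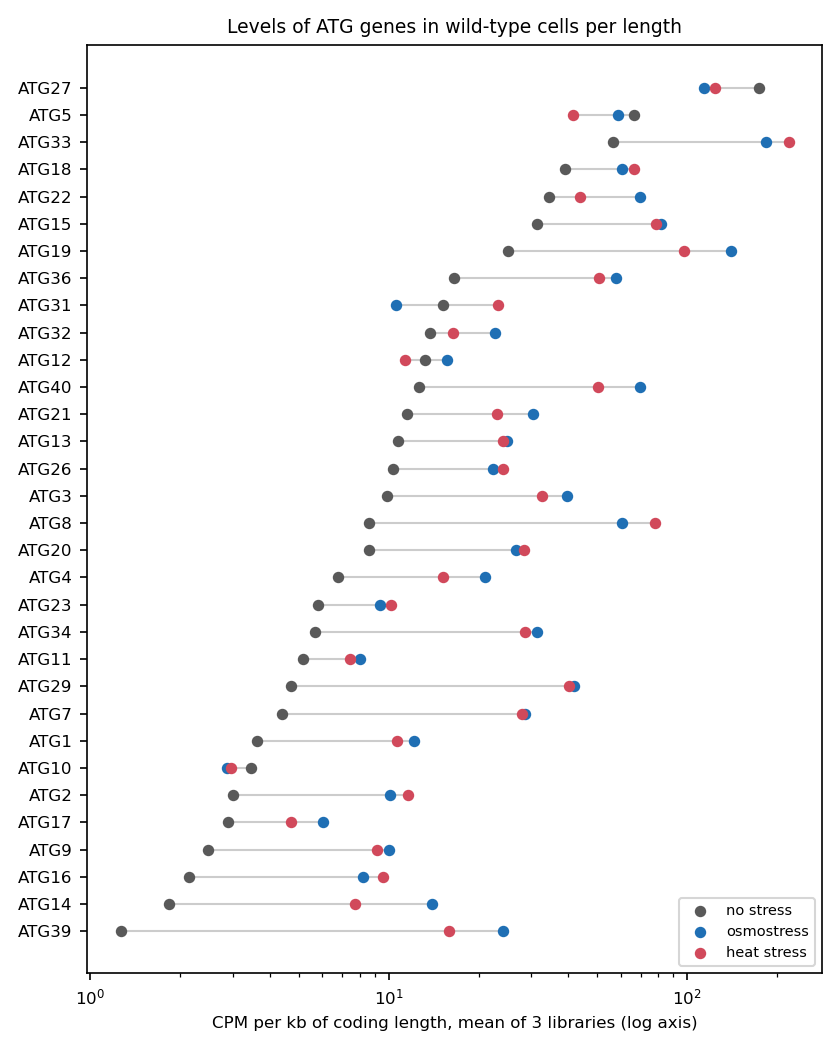
Levels of the 32 ATG genes in wild-type cells per kb of coding length (x axis, log scale), ordered by the level without stress. Points are means of 3 libraries without stress (gray), upon osmostress (blue) and upon heat stress (red); the range without stress is 1.26 (ATG39) to 174 (ATG27) CPM per kb.

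The stressed wild-type groups were compared directly, without the non-stressed libraries. Of the 32 ATG genes, 3 were higher upon heat stress and 12 were higher upon osmostress, where 29% of all genes tested were higher upon heat stress and 34% lower. The median difference was −0.12, and that of all genes was −0.0389. ATG31, lower in one stress and higher in the other, had the largest difference, 1.14 (SE 0.132, adjusted p = 1.13e-08). ATG8 was higher upon heat stress by 0.36 (SE 0.122, adjusted p = 0.0115) and ATG33 by 0.25 (SE 0.0935, adjusted p = 0.0202), and both calls were lost with library totals, under which ATG33 was at −0.08, and without the first heat-stressed library. The call of ATG33 was also lost with upper-quartile scaling and without any 1 of 3 further wild-type libraries (heat-stressed replicate 2 and osmostressed replicates 2 and 3).

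The 4 genes with the largest difference toward osmostress were ATG14 (−0.85, SE 0.164, adjusted p = 4.73e-05), ATG22 (−0.67, SE 0.0796, adjusted p = 1.75e-08), ATG39 (−0.60, SE 0.127, adjusted p = 0.000173) and ATG19 (−0.53, SE 0.0615, adjusted p = 1.4e-08). The others were ATG5, ATG4, ATG12, ATG40, ATG32, ATG21, ATG3 and ATG36, with differences between −0.50 and −0.19. With library totals in place of TMM factors, 1 ATG gene was higher upon heat stress and 23 upon osmostress, the median of all genes moved to −0.366, and the share of higher genes among all called fell from 46.0% to 20.6%.

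Without stress, H4-S47D cells had more ATG RNA than wild-type cells. Of the 32 genes, 21 were higher and 1 was lower, against 26.6% of all genes tested that were higher and 25.3% that were lower. The median log2FC was 0.42, and that of all genes was 0.00162. Summed ATG RNA was at 796.8 to 817.6 CPM in the non-stressed H4-S47D libraries and at 678.2 to 720.7 CPM in the non-stressed wild-type ones, without overlap. TRP1 and URA3 RNA were also above wild type in these cells, as given above.

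ATG39 again had the largest difference, with 7.94, 6.47 and 6.93 CPM in non-stressed H4-S47D cells, against 1.21 to 1.75 CPM in wild type (log2FC 2.24, SE 0.198, adjusted p = 1.15e-10). ATG29 was at 8.06, 5.57 and 6.36 CPM, against 2.91 to 3.10 CPM (1.13, SE 0.154, adjusted p = 4.76e-07). These were the 2 ATG genes more than 2-fold above wild type. ATG40 was at 20.9, 19.4 and 16.9 CPM, against 8.23 to 10.9 CPM (0.97, SE 0.11, adjusted p = 2.01e-08). ATG9 was at 14.7, 13.8 and 14.6 CPM, against 6.67 to 8.00 CPM (0.96, SE 0.0986, adjusted p = 2.98e-09). These 4 were named for the largest called differences, and none overlapped the wild-type libraries, which that choice makes likely.

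ATG14 was at 2.67, 3.83 and 4.07 CPM in non-stressed H4-S47D cells (log2FC 0.86, SE 0.22, adjusted p = 0.00161) and ATG8 was at 4.70, 4.45 and 5.16 CPM (0.61, SE 0.174, adjusted p = 0.00431), both above every wild-type library. ATG1 was at 13.8, 12.2 and 17.9 CPM (0.58, SE 0.147, adjusted p = 0.00165) and met the highest wild-type library at 12.2 CPM. ATG27, the most abundant per length in wild type, was the 1 gene that was lower, at 121, 117 and 115 CPM against 136 to 150 CPM (−0.27, SE 0.0593, adjusted p = 0.000332). By role, the higher genes were 4 of 6 of the Atg1 complex, 2 of 6 of Atg9 traffic and lipid transfer, ATG14 and 4 of 4 of Atg8 conjugation. They were also 1 of 4 of the Atg12 system (ATG10), 7 of 9 of cargo receptors and selective autophagy and 2 of 2 of the vacuole. With library totals the share of higher genes among all called was 77.6% in place of 51.3%, the median of all genes was 0.181, and 22 ATG genes were higher.

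The osmostress response of H4-S47D cells was compared with that of wild type by the interaction of strain and stress, which is the H4-S47D response minus the wild-type response. It was below 0 and called for 17 of 32 ATG genes and above 0 for 0 of them, against 20.7% and 12.9% of all genes tested. The interaction holds the difference without stress with its sign reversed and shares those libraries, so these results are not separate. All 17 genes were among the 21 called higher without stress. The median interaction was −0.40, and that of all genes was −0.06. The median log2FC upon osmostress was 1.12 within H4-S47D cells and 1.64 within wild-type cells. Among all genes called, 38.5% of interactions were above 0, and 49.4% with DESeq2's size factors or 49.9% with upper-quartile scaling, under which 15 and 14 ATG genes were called below 0 and 0 above.

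The smaller response had different forms. ATG39 went from 6.47 to 7.94 CPM to 38.5, 40.8 and 41.8 CPM in H4-S47D cells, above all 3 osmostressed wild-type libraries, and its interaction was −1.76 (SE 0.236, adjusted p = 9.25e-07). Its level upon osmostress was above that of wild type, and its level before stress was farther above. ATG34 went from 11.2, 11.4 and 13.2 CPM to 22.3, 25.6 and 24.6 CPM, below the 37.6 to 40.5 CPM of osmostressed wild type, and its interaction was −1.45 (SE 0.14, adjusted p = 1.96e-09). ATG40 went from 16.9 to 20.9 CPM to 44.6, 36.3 and 37.4 CPM, below the 51.4 to 54.8 CPM of osmostressed wild type, and its interaction was −1.42 (SE 0.144, adjusted p = 5.38e-09). ATG29 reached 33.5, 31.6 and 30.5 CPM, against 23.2 to 30.4 CPM in wild type, a difference in stressed level that was not called. Its interaction was −0.88 (SE 0.188, adjusted p = 0.000615).

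ATG9 reached 32.4, 33.7 and 32.1 CPM in osmostressed H4-S47D cells, against 28.8 to 31.3 CPM in wild type, and this difference too was not called (interaction −0.83, SE 0.129, adjusted p = 8.95e-06). ATG14 reached 15.6, 14.5 and 14.6 CPM and overlapped wild type (−0.82, SE 0.267, adjusted p = 0.0185). ATG1 reached 29.5, 33.3 and 33.4 CPM and also overlapped it (−0.60, SE 0.194, adjusted p = 0.0168). ATG8 stood apart from these, with 31.2, 28.8 and 27.3 CPM against 21.2 to 21.8 CPM in osmostressed wild type. It was higher than wild type in both conditions, and its interaction was −0.17 (SE 0.21, adjusted p = 0.558). The other 10 genes called were ATG15, ATG33, ATG7, ATG36, ATG2, ATG22, ATG19, ATG4, ATG13 and ATG11, with interactions between −0.76 and −0.38. ATG19 and ATG34, neighbours on chromosome XV with an osmostress log2FC of 2.47 each in wild type, had interactions of −0.44 (SE 0.0903) and −1.45 (SE 0.14).

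The osmostressed groups were then compared with each other, a comparison added after the other results were known that shares no library with the one without stress. In H4-S47D cells 5 of the 32 ATG genes were above wild type and 6 below, against 15.8% and 24% of all genes tested. Of the 21 genes that were higher without stress, 3 were higher upon osmostress, 3 were lower and 15 were not called. Summed ATG RNA was at 1486 ± 6.48 CPM (SD, n = 3) in H4-S47D cells and at 1563 ± 8.68 CPM in wild type. The order of these sums rests on the scaling. TMM factors were 1.268, 1.325 and 1.313 in the osmostressed H4-S47D libraries and 1.139, 1.108 and 1.03 in the wild-type ones. Relative to library totals alone, the sums of the H4-S47D libraries lay above those of wild type. ATG10 was at 3.32, 2.76 and 3.12 CPM against 1.18, 2.37 and 0.787 CPM in wild type (log2FC 1.08, SE 0.277, adjusted p = 0.0027), and without stress at 3.01, 2.98 and 3.23 CPM against 1.3, 1.76 and 2.16 CPM (0.85, SE 0.27, adjusted p = 0.00944). ATG10 was higher than wild type in both conditions, and its osmostress response was called in neither strain (log2FC −0.24, SE 0.305, in wild type and −0.01, SE 0.244, in H4-S47D cells).

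ATG39 was higher by 0.48 (SE 0.12, adjusted p = 0.00203), ATG8 by 0.44 (SE 0.119, adjusted p = 0.00463) and ATG31 by 0.37 (SE 0.134, adjusted p = 0.0301). ATG17 was at 12.1, 9.62 and 9.74 CPM against 8.4, 6.97 and 7.3 CPM (0.46, SE 0.177, adjusted p = 0.0415). The calls of ATG17 and ATG31 were lost without the first osmostressed H4-S47D library. ATG34 was lower by 0.68 (log2FC −0.68, SE 0.0881, adjusted p = 5.76e-07) and ATG40 by 0.45 (−0.45, SE 0.0921, adjusted p = 0.000317). ATG18 was at 61.0, 66.7 and 68.0 CPM against 86.8, 84.8 and 100 CPM (−0.47, SE 0.102, adjusted p = 0.000551). ATG15 was at 94.0, 96.6 and 96.8 CPM against 128, 112 and 145 CPM (−0.42, SE 0.125, adjusted p = 0.00869). ATG5 (−0.26) and ATG27 (−0.17) completed the lower genes, the last with a value of 0.08 under library totals.

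This comparison of stressed levels moved with the scaling. With upper-quartile scaling 10 ATG genes were higher and 3 lower, and with library totals 14 were higher and 2 lower. The share of higher genes among all called was 39.7% with TMM factors, 69.8% with upper-quartile scaling and 87.3% with library totals, and the median of all genes moved from −0.0393 to 0.0939 and 0.214. Without the third osmostressed wild-type library, 6 ATG genes were called (3 higher and 3 lower).

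**Figure D4:**
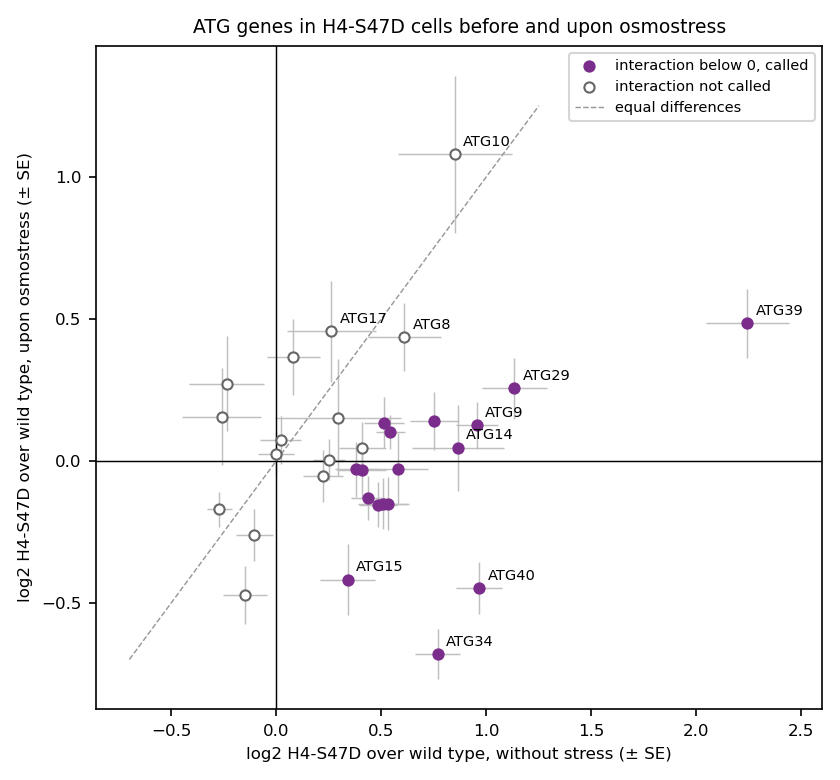
Difference of each ATG gene between H4-S47D and wild type without stress (x axis) and upon osmostress (y axis), both as log2 fold changes with their SE from 3 libraries a group, with a dashed line of equal differences. Filled points are the 17 genes whose interaction was called below 0. The interaction is the y value minus the x value, so these points lie below the line by definition. ATG34, ATG40 and ATG15 lie above 0 on the x axis and below 0 on the y axis, and ATG8 and ATG10 lie near the line.

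Few differences in ATG RNA were called in H4-T30A cells. Without stress 0 of 32 genes were higher and 1 was lower, against 0.612% and 0.773% of all genes tested. That gene was ATG33, at 27.9, 24.3 and 22.1 CPM against 30.4, 31.0 and 38.8 CPM in wild type (log2FC −0.42, SE 0.107, adjusted p = 0.0439). The groups did not overlap, and the call was lost with upper-quartile scaling, with library totals, with the replicate number as a block, in a fit to the libraries compared, and without replicate 3 of wild type or replicate 2 or 3 of H4-T30A. Without the first wild-type library, 2 genes were called, 1 in each direction. Among all genes called, 44.2% were higher with TMM factors, 32.9% with DESeq2's size factors, 58.8% with upper-quartile scaling and 81.1% with library totals, under which the median of all genes was 0.109 in place of −0.0047.

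No ATG gene had a heat response in H4-T30A cells that could be told from that of wild type. The interaction was called for 0 of 32 genes in either direction by edgeR, where 0.177% of all genes tested were above 0 and 0.306% below, 0 passed an unadjusted p of 0.05, and DESeq2 also called 0. The median interaction was −0.0797 and that of all genes −0.0382. ATG8 was at 2.65, 3.08 and 2.53 CPM without stress and at 25.6, 23.0 and 27.7 CPM upon heat stress, with an interaction of 0.08 (SE 0.232, adjusted p = 0.934). ATG1 went from 14.3, 10.7 and 13.8 CPM to 28.0, 29.5 and 33.0 CPM (−0.34, SE 0.201, adjusted p = 0.552). ATG9 went from 9.14, 8.00 and 9.88 CPM to 30.6, 28.2 and 30.8 CPM (−0.16, SE 0.136, adjusted p = 0.692), and ATG14 from 2.34, 1.58 and 2.45 CPM to 8.24, 9.74 and 12.1 CPM (0.18, SE 0.302, adjusted p = 0.877). At these SE, smaller differences in response were not detectable with 3 libraries a group.

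Upon heat stress, a comparison also added after other results were known, H4-T30A cells had 0 ATG genes above and 1 below wild type, against 2.09% and 4.54% of all genes tested. It was ATG33 again, at 96.3, 97.2 and 116 CPM against 136, 132 and 121 CPM (log2FC −0.33, SE 0.094, adjusted p = 0.0309). The call was lost with library totals, upper-quartile scaling and the size factors of DESeq2, under the first of which 1 other ATG gene was called higher, and without the first or second library of either group. The share of higher genes among all called was 31.6% with TMM factors, 59.2% with upper-quartile scaling and 73.0% with library totals. The heat interaction of ATG33 was 0.09 (SE 0.143, adjusted p = 0.876).

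In H4-T30D cells, 9 of 32 ATG genes were higher and 1 was lower than in wild type without stress, against 16.3% and 15.3% of all genes tested. The median log2FC was 0.15, and that of all genes was 0.00797. ATG39 was at 4.43, 2.29 and 2.57 CPM against 1.21 to 1.75 CPM (log2FC 1.07, SE 0.223, adjusted p = 0.000553), and its highest value came from the first library. ATG40 was at 14.4, 14.5 and 15.8 CPM (0.62, SE 0.112, adjusted p = 0.000118). ATG29 was at 4.64, 4.15 and 4.65 CPM (0.57, SE 0.163, adjusted p = 0.0086). These 3 genes had the largest called differences and lay above every wild-type library, which that choice makes likely.

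ATG2 was at 22.4, 18.1 and 21.7 CPM in non-stressed H4-T30D cells against 13.5 to 15.9 CPM (log2FC 0.53, SE 0.118, adjusted p = 0.000967). The other higher genes were ATG11 (0.48), ATG9 (0.47), ATG34 (0.46), ATG7 (0.32) and ATG36 (0.27), of which ATG7 and ATG36 were not called without the 3 libraries that held counts of deleted genes. ATG9 was at 10.2, 9.51 and 11.0 CPM. ATG31 was lower, at 6.60, 7.08 and 5.96 CPM against 8.58 to 9.47 CPM (−0.47, SE 0.132, adjusted p = 0.00769). The 3 core genes ATG1 (11.2, 9.87 and 12.4 CPM), ATG8 (3.06, 3.43 and 2.37 CPM) and ATG14 (1.90, 2.14 and 2.91 CPM) were not called and overlapped wild type. The share of higher genes among all called was 51.5% with TMM factors, 39.0% with DESeq2's size factors and 89.1% with library totals, under which the median of all genes was 0.209.

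The heat interaction of H4-T30D cells was called below 0 for 7 ATG genes, whose rise was smaller than in wild type. It was called above 0 for 1, ATG5, whose fall was smaller. Of all genes tested, 9.62% had an interaction called below 0 and 4.4% above. This interaction too shares its non-stressed libraries with the comparison without stress, in which 6 of the 7 were called higher. The median interaction was −0.29, and that of all genes −0.0574. The median log2FC upon heat stress was 1.05 within H4-T30D cells, 1.23 within H4-T30A cells and 1.45 within wild-type cells. ATG39 went to 22.8, 20.8 and 25.3 CPM and overlapped the 17.3 to 21.8 CPM of heat-stressed wild type (interaction −0.80, SE 0.26, adjusted p = 0.0376). ATG2 went to 50.3, 52.3 and 39.9 CPM, at or below the 52.3 to 57.3 CPM of wild type (−0.75, SE 0.157, adjusted p = 0.00173). ATG29 went to 23.2, 25.8 and 23.7 CPM against 25.1 to 26.5 CPM (−0.67, SE 0.198, adjusted p = 0.0227).

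ATG11, the selective autophagy scaffold, was at 25.4, 26.2 and 24.8 CPM without stress and at 25.4, 27.5 and 23.5 CPM upon heat stress in H4-T30D cells, against 17.2, 17.6 and 20.1 CPM and 24.9, 26.6 and 27.4 CPM in wild type. Its level before stress in the mutant was thus that of heat-stressed wild type, and its interaction was −0.52 (SE 0.134, adjusted p = 0.00898). ATG7, ATG36 and ATG26 had interactions of −0.45, −0.39 and −0.31, with adjusted p between 0.0289 and 0.0484. ATG5 went the other way, at 49.1, 50.7 and 50.7 CPM without stress and 44.2, 38.0 and 42.8 CPM upon heat stress, so that its decrease was smaller than in wild type (0.40, SE 0.131, adjusted p = 0.038). Without the 3 libraries that held counts of deleted genes, 3 ATG genes were called below 0 and 0 above. DESeq2's size factors left 4 calls (1 above 0), and the share of interactions above 0 among all genes called was 31.4% with TMM factors, 53.8% with these factors, 45.7% with upper-quartile scaling and 13.5% with library totals, under which the median of all genes was −0.182. Leaving out single libraries gave 2 calls without the first non-stressed H4-T30D library, 3 without the second heat-stressed wild-type library, 4 or 5 without any other non-stressed or heat-stressed H4-T30D library, 4 without the second non-stressed wild-type library and 5 without the third heat-stressed wild-type library.

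**Figure D5:**
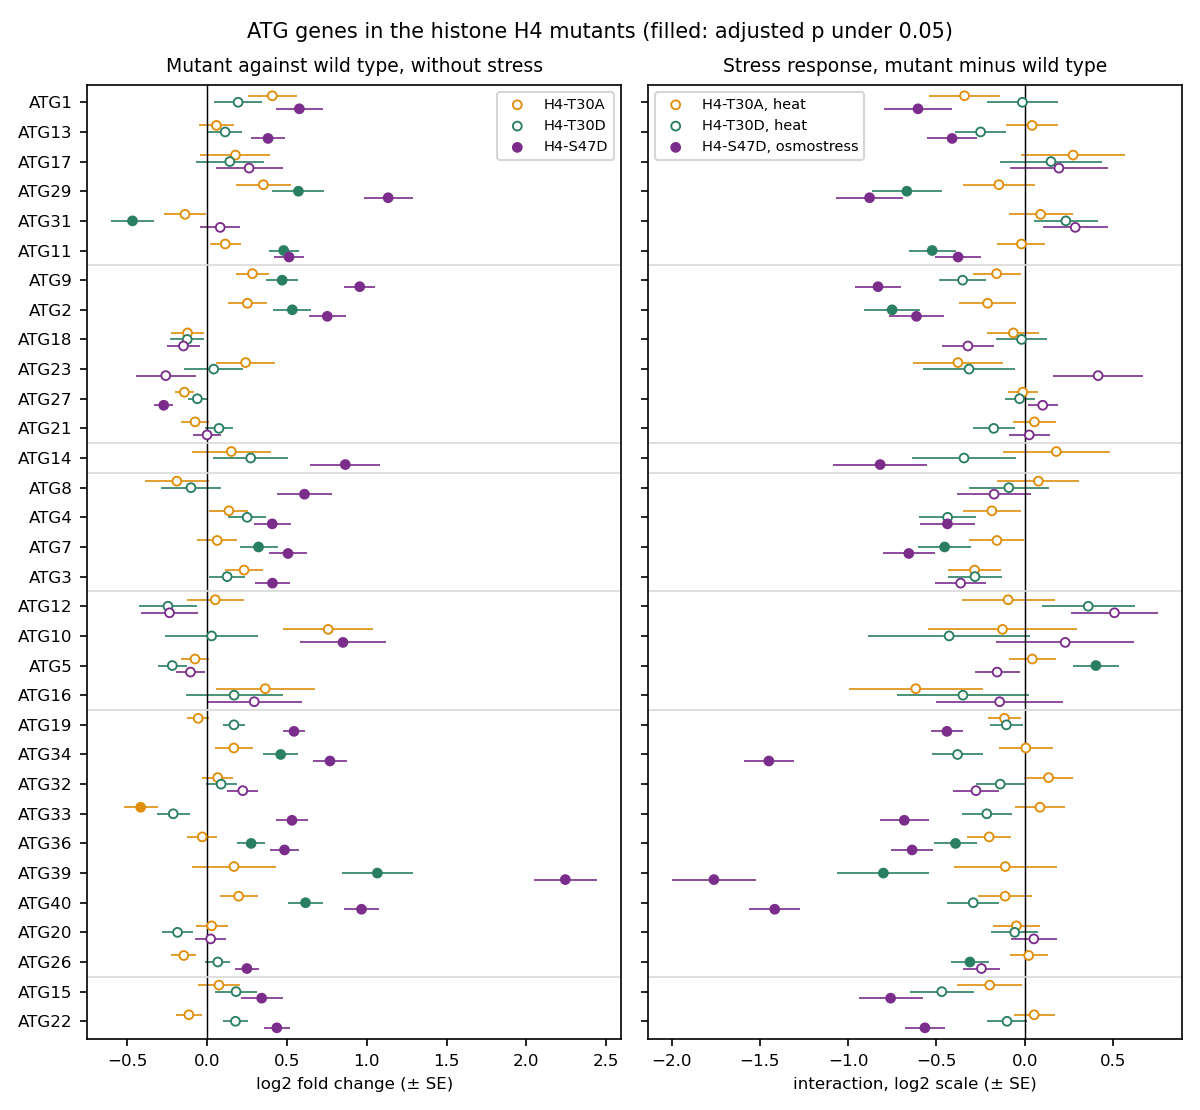
Log2 differences (x axes, with SE) of the 32 ATG genes between each H4 mutant and wild type without stress (left) and between the stress response of the mutant and that of wild type (right), filled where the adjusted p was under 0.05. H4-S47D (purple, osmostress) has 21 genes called above 0 on the left and 17 below 0 on the right, H4-T30D (green, heat stress) 9 and 7, and H4-T30A (orange, heat stress) 0 and 0. Both panels use the non-stressed libraries, with opposite sign.

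The genes of the core steps, ATG1, ATG8, ATG9 and ATG14, had no called interaction in H4-T30D cells. Their heat-stressed values were 33.7, 32.4 and 31.8 CPM for ATG1, 22.1, 27.4 and 23.0 CPM for ATG8, 29.2, 28.2 and 32.0 CPM for ATG9, and 8.19, 7.23 and 7.30 CPM for ATG14. The interactions were −0.01 (SE 0.199), −0.09 (SE 0.225), −0.35 (SE 0.133) and −0.34 (SE 0.293), with adjusted p of 0.973, 0.832, 0.0748 and 0.47.

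Compared upon heat stress, also added after other results were known, 1 ATG gene was higher and 2 were lower in H4-T30D than in wild type, against 5.01% and 8.7% of all genes tested. Of the 9 genes higher without stress, 1 was higher upon heat stress and 8 were not called. That gene was ATG40, at 52.6, 45.6 and 47.3 CPM against 35.2, 39.2 and 42.0 CPM (log2FC 0.32, SE 0.0949, adjusted p = 0.0208). ATG33 was at 96.3, 91.8 and 102 CPM against 136, 132 and 121 CPM (−0.43, SE 0.0945, adjusted p = 0.0022). ATG26 was at 70.9, 75.9 and 73.2 CPM against 80.3, 88.1 and 92.3 CPM (−0.25, SE 0.0735, adjusted p = 0.0237, lost without the 3 libraries with counts of deleted genes). Without the first heat-stressed H4-T30D library, 1 gene was called. The share of higher genes among all called was 36.5% with TMM factors, 47.1% with DESeq2's size factors, 65.7% with upper-quartile scaling and 64% with library totals.

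The substitutions at threonine 30 were compared directly, as the heat response of H4-T30D minus that of H4-T30A, likewise added after other results were known. Of 32 ATG genes 0 were higher and 3 were lower, against 3.78% and 5.23% of all genes tested. They were ATG11 (−0.51, SE 0.133, adjusted p = 0.0149), ATG2 (−0.54, SE 0.156, adjusted p = 0.0261) and ATG26 (−0.33, SE 0.107, adjusted p = 0.0478). In H4-T30A cells ATG11 went from 20.8, 17.6 and 20.6 CPM to 28.0, 28.2 and 28.0 CPM, ATG2 from 17.9, 16.7 and 16.8 CPM to 61.6, 56.5 and 52.7 CPM, and ATG26 from 32.1, 32.3 and 37.0 CPM to 77.2, 82.2 and 79.8 CPM. No gene was called without the second non-stressed H4-T30A or the heat-stressed H4-T30D library 3, and 1 was called without the first heat-stressed H4-T30A library or non-stressed H4-T30D library 1 or 3. Among all genes called, 42.0% were higher with TMM factors, 55.7% with DESeq2's size factors and 13.7% with library totals, under which the median of all genes was −0.156.

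The cargo and the hydrolases that receive it were followed in a companion list of 9 genes of the vacuole and the Cvt pathway, which do not belong to the 32. Upon osmostress 5 rose past 2-fold and upon heat stress 6, where 12.8% and 15.8% of all genes tested rose, with 0 of the 9 falling past 2-fold in either. APE1, the aminopeptidase that Atg19 binds, was at 51.9, 51.7 and 52.3 CPM without stress, at 309, 288 and 347 CPM upon osmostress and at 633, 616 and 555 CPM upon heat stress. AMS1, the mannosidase cargo of Atg19 and Atg34, was at 9.18, 9.71 and 9.49 CPM, then at 97.6, 93.6 and 92.1 CPM and at 112, 122 and 120 CPM. Both cargo genes rose in both stresses. In non-stressed H4-S47D cells 7 of the 9 were called higher and 0 lower (26.6% and 25.3% of all genes tested), and the osmostress interaction was called below 0 for all 9 (20.7%). AMS1 was at 44.4, 39.3 and 42.5 CPM there (log2FC 2.15) and at 80.3, 93.2 and 94.6 CPM upon osmostress (interaction −2.23). In H4-T30D cells 4 were called higher and 1 lower without stress (16.3% and 15.3% of all genes tested) and the heat interaction was called below 0 for 4 (9.62%), and in H4-T30A cells it was called for 0.

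A second companion list held 9 partners of the phosphatidylinositol 3-kinase and of Atg9 membranes. Upon osmostress 2 rose past 2-fold, the sorting nexin genes SNX4 and SNX41, and 1 fell, where 12.8% of all genes tested rose and 12.5% fell. Upon heat stress 4 rose and 0 fell, where 15.8% of all genes tested rose and 15.4% fell. ATG41, which encodes an Atg9-binding protein and was not among the 32, moved in opposite directions, from 17.7, 20.4 and 19.3 CPM without stress to 5.89, 4.61 and 6.51 CPM upon osmostress (log2FC −1.75) and 661, 620 and 499 CPM upon heat stress (log2FC 4.95). VPS34, the kinase, was at 24.2, 24.1 and 23.2 CPM without stress, at 48, 45.5 and 48.1 CPM upon osmostress and at 69.0, 73.8 and 70.4 CPM upon heat stress. Its autophagy-specific partner ATG14 was, by contrast, higher upon osmostress than upon heat stress, as given above. The osmostress interaction in H4-S47D cells was called below 0 for 4 of these 9 genes and above 0 for 0, where 20.7% and 12.9% of all genes tested were called.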

How the data were processed

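Poly(A) RNA was measured in 27 libraries (TruSeq stranded mRNA kit, single-end reads). The authors mapped reads with TopHat2 2.1.0 to the R64 (sacCer3) genome and counted them per gene with featureCounts 1.5.1, and they deposited whole-number counts for 6746 genes without normalization; the submitters' processing notes also name DESeq2 1.14.1. The strand setting is not given in the sources used here. No column was left unmapped.

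From these counts, edgeR's filterByExpr (minimum count 10) kept 6209 genes. Library totals ran from 10212777 to 19503694, scaled by TMM. edgeR 4.0.16 (R 4.3.3, limma 3.58.1) fitted all libraries by quasi-likelihood, with the 9 group means as coefficients. For the responses of wild type, glmTreat tested changes past a log2 value of 1, and glmQLFTest tested these and all other differences against 0; genes with a Benjamini-Hochberg adjusted p under 0.05 were called.

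All 32 ATG genes are accounted for. Values per library are given for ATG1, ATG8, ATG9, ATG14 and for the called genes with the largest differences, up to 4 per direction and comparison. The genes, the 5 companion lists and the tests were chosen with earlier results of these data known. The companion lists are vacuolar hydrolases and Cvt cargo, phosphatidylinositol 3-kinase and membrane partners, transcriptional regulators, TORC1 and nutrient kinases, and strain marker and histone genes. The comparisons of stressed levels, of both threonine 30 mutants, and the fits without libraries holding counts of deleted genes were added after seeing the data. Upstream windows came from the R64 genome sequence, with motifs searched on both strands. Alternatives were other scalings, other filters, the replicate number as a block, fits to the libraries compared, DESeq2 1.42.0, and each library left out. Scripts were tested on simulated data. Plots used Python 3.11.15 and matplotlib 3.10.9.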

Additional observations from a re-analysis of the deposited data

Results flagged for a closer look

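The stress responses of wild-type and mutant cells differed by a test of the interaction (edgeR's quasi-likelihood test, Benjamini-Hochberg adjusted p under 0.05) in 25 cases, each given as the mutant response minus the wild-type response on the log2 scale. For H4-S47D and osmostress there were 17, all below 0. In the Atg1 complex they were ATG1 (−0.60), ATG13 (−0.41), ATG29 (−0.88) and ATG11 (−0.38), and among the genes of the membrane source and its kinase ATG9 (−0.83), ATG2 (−0.61) and ATG14 (−0.82). In Atg8 conjugation they were ATG4 (−0.44) and ATG7 (−0.66). In cargo receptors and selective autophagy they were ATG19 (−0.44), ATG34 (−1.45), ATG33 (−0.68), ATG36 (−0.64), ATG39 (−1.76) and ATG40 (−1.42), and in the vacuole ATG15 (−0.76) and ATG22 (−0.57).

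For H4-T30D and heat stress there were 8. Those below 0 were ATG29 (−0.67), ATG11 (−0.52), ATG2 (−0.75), ATG7 (−0.45), ATG36 (−0.39), ATG39 (−0.80) and ATG26 (−0.31), and ATG5 (0.40) was above 0. With 3 libraries a group, single libraries that stood apart within a group were not tested.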

How the results depend on the processing

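The alternatives counted here were the other scalings, filters and fits, among them the fit without the libraries holding counts of deleted genes. Omission of single libraries is given separately below. Past 2-fold, 20 ATG genes upon osmostress became 18 to 22, and 18 upon heat stress became 16 to 18. In non-stressed cells, 22 for H4-S47D became 16 to 23, and 10 for H4-T30D became 8 to 14. The 17 interactions in H4-S47D cells became 12 to 18, and the 0 in H4-T30A cells stayed 0. Calls of single genes kept their direction and side of the threshold in 1581 cases, lost the threshold in 109 and reversed in 2, both under library totals: ATG33 in heat-stressed against osmostressed wild type (−0.0805) and ATG27 in osmostressed H4-S47D against wild type (0.0819). The median of the ATG genes in heat-stressed H4-T30A against wild type, −0.0395, became 0.0235 under upper-quartile scaling, 0.0843 under library totals and 0.00565 in a fit to the libraries compared.

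Counts that moved by over 1.5 times were as follows. Heat-stressed against osmostressed wild type gave 24 under library totals (15 with TMM). Non-stressed H4-T30A gave 0 under upper-quartile scaling, library totals, the block and the libraries compared alone (1 with TMM), and heat-stressed H4-T30A 0 under DESeq2's size factors and upper-quartile scaling (1). The H4-T30D interaction gave 4 with DESeq2's size factors, 4 with the libraries compared alone, 5 with DESeq2 and 3 without the libraries holding counts of deleted genes (8). H4-T30D minus H4-T30A gave 5 under library totals and 8 with the libraries compared alone (3).

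Leaving out each library in turn gave 18 to 21 genes past 2-fold upon osmostress, 17 to 20 upon heat stress, 29 to 30 against 0 in both, 11 to 14 between the stressed groups, 21 to 23 in non-stressed H4-S47D, 0 to 2 in H4-T30A and 8 to 10 in H4-T30D cells, interactions of 13 to 18, 0 and 2 to 9, stressed differences of 6 to 11, 0 to 1 and 1 to 3, and 0 to 3 for H4-T30D minus H4-T30A. Calls of single genes were lost in 144 of these cases and reversed in 0.

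With the replicate number as a block, 20, 18, 29, 30 and 15 ATG genes were called in the wild-type comparisons, 22, 0 and 10 without stress in H4-S47D, H4-T30A and H4-T30D, 17, 0 and 7 for the interactions, 11, 1 and 4 for the stressed groups and 2 for H4-T30D minus H4-T30A. The numbers did not pair the samples: over 27 pairs of same-numbered libraries the correlation of deviations ran from −0.405 to 0.146, 2 exceeded 0.1, and in 5 the library correlated best with its own number. Depth limited the genes near 1 to 3 CPM, ATG10, ATG16 and, without stress, ATG14 and ATG39. It also limited ATG8 and ATG29 in non-stressed wild-type cells, where their means were 3.05 and 3.03 CPM.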

Other observations

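Of 11 transcriptional regulators of ATG genes, 1 rose and 1 fell past 2-fold in wild-type cells in each stress, no larger a share than among all genes tested, of which 12.8% rose and 12.5% fell upon osmostress and 15.8% and 15.4% upon heat stress. Upon osmostress the gene that rose was MSN2, which encodes a factor that binds the stress response element, from 53.9, 37.7 and 43.3 CPM to 147, 139 and 144 CPM (log2FC 1.67). Upon heat stress it was its relative MSN4, from 33.6, 28.0 and 31.6 CPM to 77.4, 79.9 and 73.0 CPM (log2FC 1.31). GCN4, the activator of amino acid synthesis, fell in both, from 1320, 1620 and 1360 CPM to 362, 373 and 362 CPM upon osmostress and to 398, 416 and 462 CPM upon heat stress. In non-stressed H4-S47D cells, 1 regulator was higher (MSN4, at 59.4, 55.3 and 66.0 CPM) and 4 were lower, where 26.6% and 25.3% of all genes tested were. Among these was UME6, the repressor that binds URS1, at 23.4, 25.9 and 25.8 CPM against 38.8, 32.9 and 38.0 CPM in wild type (log2FC −0.55).

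Of 9 genes of TORC1 and the nutrient kinases, 0 passed 2-fold upon osmostress in either direction, where 12.8% of all genes tested rose and 12.5% fell. Upon heat stress 2 of the 9 rose, where 15.8% of all genes tested rose. LST8, a TORC1 and TORC2 subunit, was at 41.6, 47.5 and 47.5 CPM without stress, at 57.6, 60.9 and 66.0 CPM upon osmostress and at 1600, 1650 and 1400 CPM upon heat stress (log2FC 5.09). In the mutants its heat-stressed level was 1550, 1530 and 1570 CPM for H4-T30A and 1220, 1360 and 1300 CPM for H4-T30D. RIM15, the kinase that promotes entry into quiescence, was at 44.6, 41.3 and 43.0 CPM without stress and at 131, 130 and 117 CPM upon heat stress (log2FC 1.55).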
